A study of Mus musculus with 6 samples.

Results

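A set of 8 genes of the forming nephron (Irx1, Irx2, Irx3, Pou3f3, Papss2, Greb1, Tmem100 and Wfdc2) was examined in mouse kidneys that lack beta-catenin in the ureteric bud. They were taken by symbol, as every probe set whose platform annotation gave 1 of these names and no other, which found 16 of the 45101 probe sets on the array and all 8 genes. Wnt, Notch and Bmp genes were left out. Whole kidneys of embryonic day 12.5 were compared on 6 Affymetrix arrays. The knockout group (3 arrays) came from mice with a beta-catenin (Ctnnb1) allele whose exons 2 to 6 are flanked by loxP sites, crossed to Hoxb7-Cre:Gfp mice, in which the Hoxb7 promoter drives the recombinase in the ureteric bud lineage and not in the cells that form nephrons. The normal group (3 arrays) is labelled only as normal mouse kidney, so whether those mice carried a transgene or a loxP allele is not given in the sources used here. Dissected tissue was shared out at random among the vials of a group, the number of embryos per vial is not given, and p-values therefore cover only how far these samples vary, which may be technical in part.

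The nephron forms when mesenchyme beside the ureteric bud tip condenses, turns into an epithelial ball, the renal vesicle, and is then divided along its length into podocytes, proximal tubule, loop of Henle and distal tubule. The Iroquois homeobox factors Irx1, Irx2 and Irx3 and the POU factor Pou3f3 (Brn1) mark or pattern the middle and distal part of the young nephron, and Pou3f3 is needed in mice for the loop of Henle. Papss2, Greb1 and Tmem100 are used as markers of the renal vesicle, and Wfdc2 encodes a small secreted protein of epithelia.

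In knockout kidneys Tmem100, Greb1, Papss2 and Pou3f3 each had a lower signal than in normal kidneys, with no overlap between the arrays of the groups for the brightest probe set of each gene. The differences were moderate, between 59% (Tmem100) and 80% (Pou3f3) of the normal level for those probe sets. Wfdc2 and Irx3 had overlapping groups, and Irx1 and Irx2 were too dim to be measured well. None of the 9 probe sets bright enough to be tested passed an adjusted p of 0.05 (limma, Benjamini-Hochberg over 27022 probe sets), where 0.581% of all tested probe sets passed. At an unadjusted p under 0.05, 6 of the 9 were lower and 0 higher, against 5.72% lower and 5.74% higher of all tested probe sets. That count was 3 without knockout replicate 2. Over all 16 probe sets, dim ones included, the knockout arrays lay entirely below the normal arrays in 9 and entirely above them in 1, against 6.99% and 7.76% of all probe sets. The 9 belong to 4 genes and so are not independent. The median log2 difference (knockout minus normal) over the 16 was -0.54, beside a median of -0.002 over all 45037 probe sets, controls left out. It depends on genes with several probe sets and on dim ones: over the brightest probe set of each of the 8 genes it was -0.32, and over the 16 on the log2(signal + 16) scale it was -0.30. In whole kidneys, fewer cells of a type and less RNA per cell cannot be told apart.

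**Figure D1:**
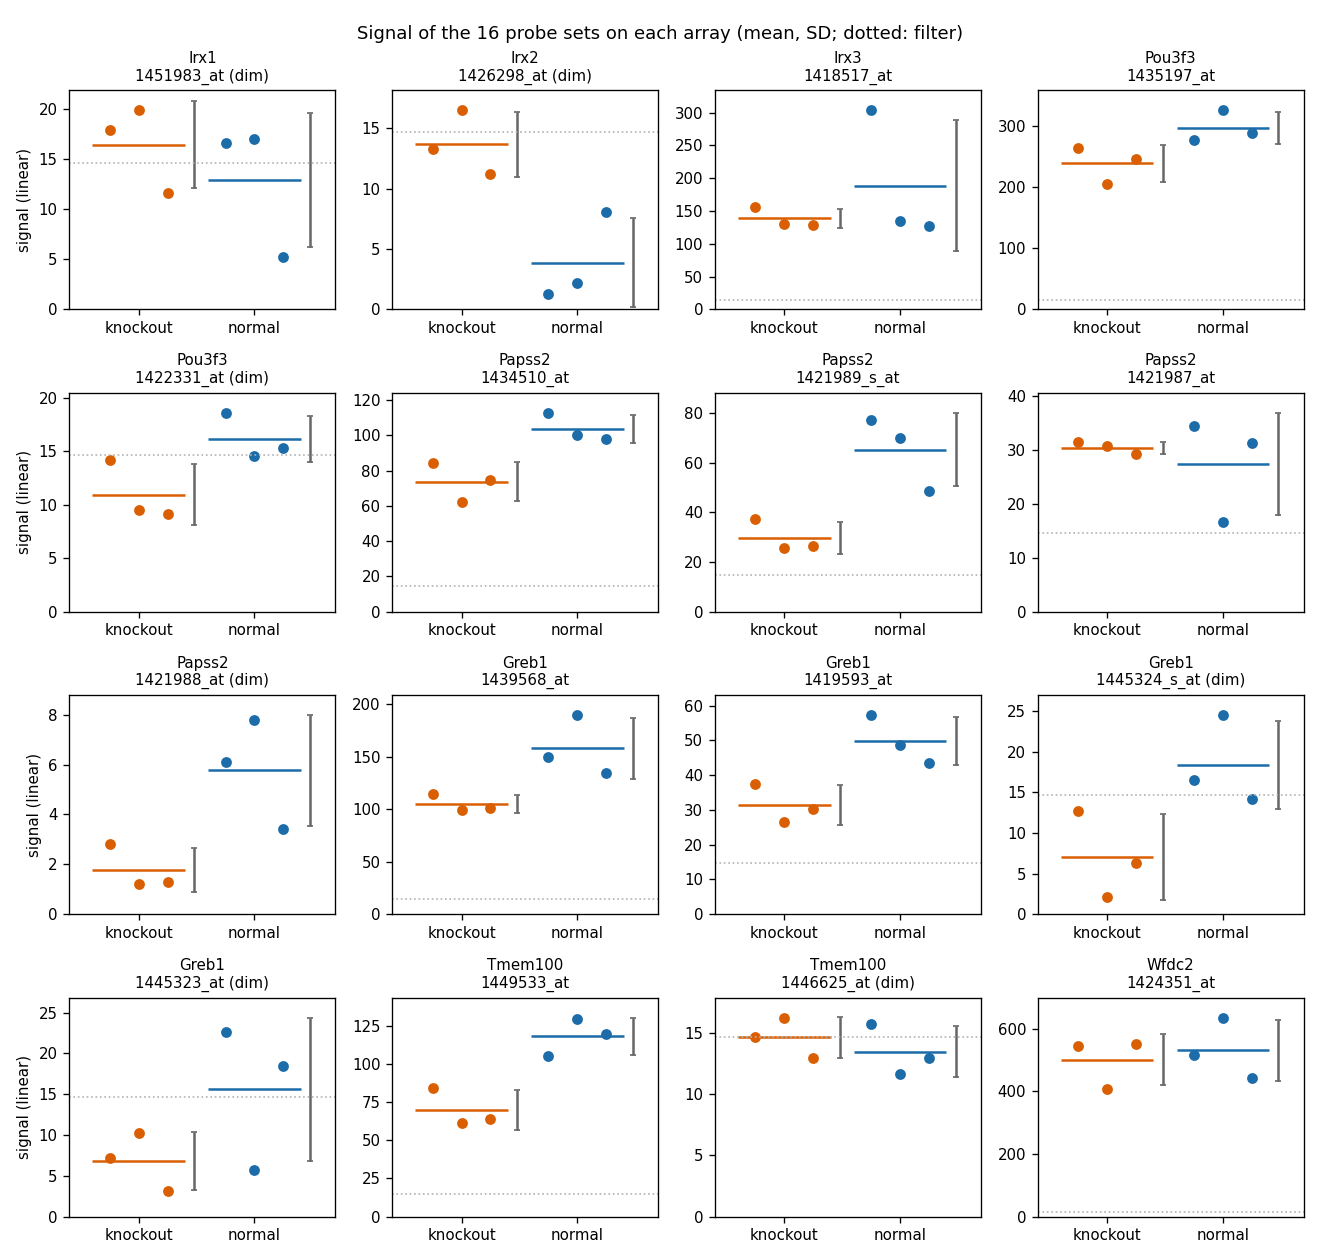
Signal (linear MAS5 intensity, vertical axes from 0) of the 16 probe sets of the 8 genes on the 3 knockout arrays (left, orange) and the 3 normal arrays (right, blue). Lines are group means, bars beside them are SD, and the dotted line is the signal of 14.7 that separates tested from dim probe sets. The knockout points of Tmem100 1449533_at sit between 60.9 and 84.4, below all 3 normal points.

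The bases before the annotated starts of 3 of these 4 genes are shown because their probe sets were lower together. They come from RefSeq (build GRCm38.p6), 250 bases before a transcript start, read 5′ to 3′ on the gene's strand. Such sequences were at hand for 6 of the 8 genes. Capitals mark CCAAT boxes and TGGGAA, the core bound by Rbpj, the nuclear partner of Notch, on either strand.
Pou3f3, chr1:42695518-42695767 (+ strand): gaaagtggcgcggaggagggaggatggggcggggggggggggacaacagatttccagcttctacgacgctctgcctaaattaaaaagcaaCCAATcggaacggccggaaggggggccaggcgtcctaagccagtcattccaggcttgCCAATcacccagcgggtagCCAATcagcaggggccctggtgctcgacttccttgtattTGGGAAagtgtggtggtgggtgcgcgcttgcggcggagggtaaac
Papss2, chr19:32595465-32595714 (+ strand): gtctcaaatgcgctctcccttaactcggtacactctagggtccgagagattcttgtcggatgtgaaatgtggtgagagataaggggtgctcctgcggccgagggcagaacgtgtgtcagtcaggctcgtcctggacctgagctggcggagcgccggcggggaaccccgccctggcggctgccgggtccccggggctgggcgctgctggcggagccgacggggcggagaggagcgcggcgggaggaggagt
Greb1, chr12:16800887-16801136 (- strand): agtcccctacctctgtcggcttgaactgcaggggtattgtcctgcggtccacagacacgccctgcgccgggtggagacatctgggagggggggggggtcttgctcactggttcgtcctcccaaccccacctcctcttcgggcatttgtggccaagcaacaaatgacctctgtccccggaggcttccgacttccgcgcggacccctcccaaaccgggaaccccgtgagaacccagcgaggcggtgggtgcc
Pou3f3 carries 3 CCAAT boxes and 1 TGGGAA in this window, whereas the windows of Papss2 and Greb1 shown carry neither. The contrast is one of these windows and not of the genes, since the window before another start holds 2 CCAAT boxes for Papss2 and 1 for Greb1. CCAAT was found in 33.9% and TGGGAA in 21.6% of 32851 such windows, both strands read. The core letters of Tcf/Lef sites, the factors that work with beta-catenin, were searched as CTTTGAT and CTTTGTT on both strands. Neither occurred in any of the 9 windows of the 6 genes, and they occurred in 3.21% and 5.03% of all windows. A match or its absence describes these letters only.

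Tmem100, a small transmembrane protein found in the renal vesicle and, elsewhere in the mouse embryo, in arterial endothelium, had the lowest p of the brightest probe sets. The probe set 1449533_at read 84.4, 60.9 and 63.9 in knockout replicates 1 to 3, against 104.8, 129.3 and 119.6 in normal replicates 1 to 3. All knockout arrays were below all normal arrays, and knockout replicate 1 was the nearest to them. The means were 69.7 ± 12.8 in knockout and 117.9 ± 12.3 in normal kidneys (SD, n = 3 each). The log2 difference was -0.77 (SE 0.18, 95% interval from -1.18 to -0.36, limma adjusted p = 0.154). The other probe set, 1446625_at, stayed between 13.0 and 16.3 in knockout and between 11.7 and 15.8 in normal arrays, around the filter level, and its difference was 0.12. The 11 endothelial markers had a mean log2 level of -0.35, -0.10 and -0.17 in knockout replicates 1 to 3, against 0.40, -0.24 and -0.16 in normal replicates 1 to 3, each set against the normal mean. These groups overlapped. Of 10 endothelial markers tested, 8 had a lower and 2 a higher mean, with a median log2 difference of -0.22. At an unadjusted p under 0.05, where 5.57% of all genes were lower, 3 of the markers were lower. These were Kdr, the VEGF receptor, at -0.40 (SE 0.13, limma adjusted p = 0.311), Robo4 at -0.62 (SE 0.23, limma adjusted p = 0.383), both without overlap between the groups, and Eng at -0.44 (SE 0.17, limma adjusted p = 0.383). The 2 with a higher mean were Emcn at 0.19 and Tek at 0.06. The part of endothelial cells in the Tmem100 difference was not tested.

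Greb1, a chromatin-associated cofactor of the oestrogen receptor in human breast cancer cells, was lower by each of its 4 probe sets. The brightest, 1439568_at, read 114.5, 98.9 and 100.7 in knockout replicates 1 to 3, against 149.9, 189.6 and 134.0 in normal replicates 1 to 3. The knockout arrays lay close together below the normal ones. Their means were 104.7 ± 8.54 in knockout and 157.8 ± 28.6 in normal kidneys (SD, n = 3 each), a log2 difference of -0.58 (SE 0.16, limma adjusted p = 0.238). The next probe set, 1419593_at, read 37.6, 26.5 and 30.2 in knockout arrays, against 57.3, 48.8 and 43.4 in normal arrays. These groups did not overlap either, and the log2 difference was -0.67 (SE 0.24, limma adjusted p = 0.369). The dim probe sets 1445324_s_at and 1445323_at differed by -1.70 and -1.13, with no test, and the groups overlapped for the second. On so low a signal MAS5 values scatter widely, so the larger size of these differences is poorly measured. With the mean of the 2 tested probe sets the gene differed by -0.63 (SE 0.16, limma adjusted p = 0.174).

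Papss2, an enzyme that makes PAPS, the sulfate donor for proteoglycans and other molecules, had 4 probe sets, which did not all move alike. The brightest, 1434510_at, read 84.3, 62.5 and 74.5 in knockout replicates 1 to 3, against 112.9, 100.2 and 98.2 in normal replicates 1 to 3. All knockout arrays were below all normal arrays, with a log2 difference of -0.50 (SE 0.17, limma adjusted p = 0.345). The probe set 1421989_s_at read 37.3, 25.5 and 26.3 in knockout arrays, against 77.3, 70.0 and 48.7 in normal arrays. It had the largest difference of the 9 tested probe sets, with means of 29.7 ± 6.59 in knockout and 65.3 ± 14.9 in normal kidneys (SD, n = 3 each), a log2 difference of -1.13 (SE 0.27, 95% interval from -1.74 to -0.53, limma adjusted p = 0.153). With each array centred on its median it passed the threshold (limma adjusted p = 0.0217), and in the 15 other alternatives run for it the adjusted p did not. In contrast 1421987_at read 31.4, 30.7 and 29.2 in knockout arrays, against 34.4, 16.7 and 31.3 in normal arrays. These overlapped, and the log2 difference was 0.22 (SE 0.33, 95% interval from -0.53 to 0.96, limma adjusted p = 0.831). The fourth, 1421988_at, was dim, at most 2.8 in knockout and at least 3.4 in normal arrays. The probe sets 1421987_at, 1421988_at and 1421989_s_at are annotated to the same accession, and which transcripts each of them reads is not analysed here. With the mean of the 3 tested probe sets the gene differed by -0.47 (SE 0.20, limma adjusted p = 0.391).

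Pou3f3 had the smallest difference of the 4 genes. Its brightest probe set, 1435197_at, read 264.4, 205.4 and 246.9 in knockout replicates 1 to 3, against 276.7, 325.9 and 288.1 in normal replicates 1 to 3. The groups did not overlap, but knockout replicate 1 was close to normal replicate 1. The means were 238.9 ± 30.3 in knockout and 296.9 ± 25.8 in normal kidneys (SD, n = 3 each), a log2 difference of -0.32 (SE 0.13, 95% interval from -0.61 to -0.03, limma adjusted p = 0.409). The dim probe set 1422331_at read 14.2, 9.5 and 9.1 in knockout arrays, against 18.6, 14.6 and 15.3 in normal arrays, also without overlap. Its log2 difference was -0.59, with no test.

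Among the Iroquois genes, which lie in clusters and are used as markers of the middle nephron segments, only Irx3 was bright enough to be tested. Irx3 (1418517_at) read 155.9, 130.2 and 129.3 in knockout replicates 1 to 3, against 303.4, 135.2 and 126.4 in normal replicates 1 to 3. Normal replicate 1 stood apart well above the other arrays, which all lay close together (from 126.4 to 155.9). The log2 difference was -0.33 (SE 0.30, 95% interval from -1.01 to 0.35, limma adjusted p = 0.693) and it was 0.08 without normal replicate 1. Irx1 (1451983_at) read 17.9, 19.9 and 11.6 in knockout arrays, against 16.6, 17.0 and 5.2 in normal arrays, which overlap. Irx2 (1426298_at) was the 1 probe set with the knockout arrays entirely above the normal arrays, at 13.3, 16.5 and 11.2 in knockout, against 1.3, 2.2 and 8.1 in normal. Its log2 difference of 2.24 had no test in the fit. In the fit with no filter it had an unadjusted p of 0.0187 and a limma adjusted p of 0.454. The mean signal of Irx2 lay at the 25.9th percentile of all probe sets, so whether it was present in these kidneys at all is not settled by these values.

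Wfdc2 (1424351_at) read 545.8, 408.1 and 552.9 in knockout replicates 1 to 3, against 516.3, 636.6 and 443.3 in normal replicates 1 to 3. The groups overlapped widely, and the log2 difference was -0.08 (SE 0.16, 95% interval from -0.44 to 0.28, limma adjusted p = 0.875). A difference as large as that of Tmem100 (-0.77) lies outside this interval.

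**Figure D2:**
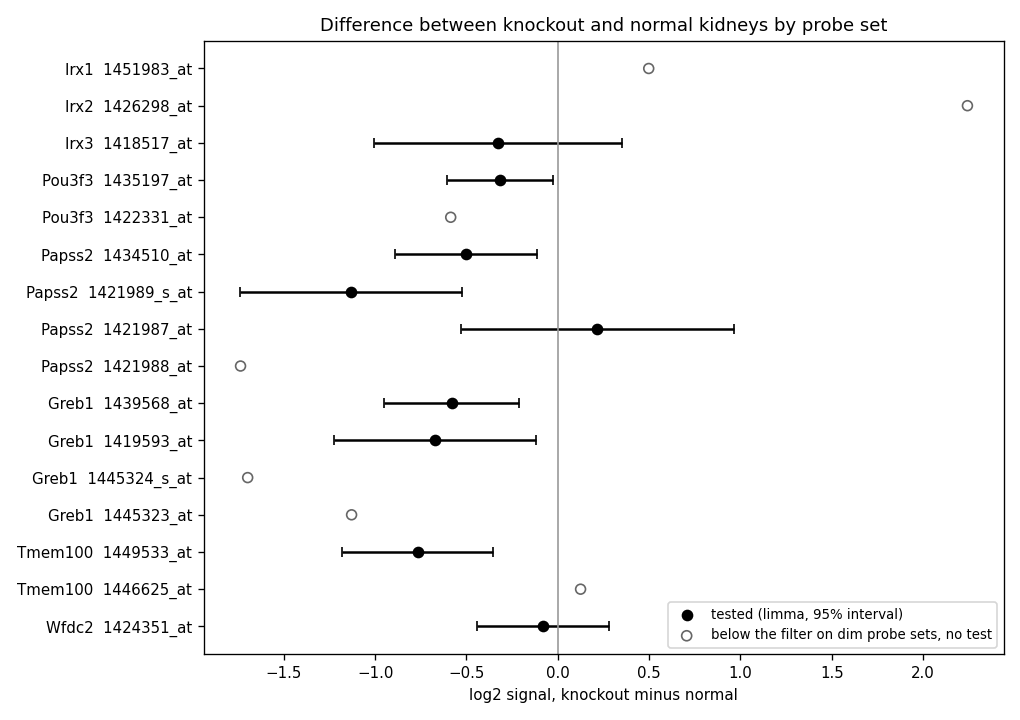
Log2 signal, knockout minus normal, of each of the 16 probe sets (horizontal axis). Filled points with bars are the 9 tested probe sets with 95% intervals from limma, and open points are the 7 dim ones, which have no test. The bars of 6 tested probe sets of Pou3f3, Papss2, Greb1 and Tmem100 lie below 0, while those of Irx3, Wfdc2 and Papss2 1421987_at cross it.

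The 4 genes shared an order of the knockout arrays. Set against the normal mean, the brightest probe sets of Tmem100, Greb1, Papss2 and Pou3f3 stood at -0.95, -0.66, -0.73 and -0.53 in knockout replicate 2. They stood at -0.88, -0.63, -0.48 and -0.26 in knockout replicate 3, and at -0.48, -0.45, -0.30 and -0.16 in knockout replicate 1 (log2). In 8 of the 9 probe sets without overlap that were lower, knockout replicate 2 was the lowest array, and in all 9 knockout replicate 1 was the highest knockout array. These 9 belong to the same 4 genes. The order was not counted over all lower probe sets, so whether it is particular to these genes is not known. The arrays also differed in tissue makeup. The 8 skeletal muscle markers had a mean log2 level, set against the normal arrays, of 1.53, 3.84 and -0.09 in knockout replicates 1 to 3, against -0.08, -0.13 and 0.21 in normal replicates 1 to 3, with summed signals from 492 to 5903 in knockout and from 394 to 498 in normal arrays. Knockout replicate 3, with muscle markers near the normal level, had the highest erythroid mean of all arrays (1.45). A fit of knockout replicate 3 alone against the normal arrays was chosen after seeing the data and rests on 1 array. Its log2 differences were -0.88 for Tmem100, -0.63 for Greb1 1439568_at, -0.48 for Papss2 1434510_at and -0.26 for Pou3f3 1435197_at. The part of muscle tissue in the differences was not tested.

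The 7 nephron progenitor markers, which mark the cells that renal vesicles form from, were all above the filter. Their mean was -0.04, -0.22 and 0.14 in knockout arrays, against -0.06, 0.06 and -0.002 in normal arrays, so the groups overlapped. That mean holds markers that differed in opposite directions, 3 with a higher and 4 with a lower mean. Meox1, a homeobox factor, had a log2 difference of 0.66 (SE 0.16, limma adjusted p = 0.157) and Osr1, an early factor of the kidney mesenchyme, one of 0.61 (SE 0.18, limma adjusted p = 0.277), both with every knockout array above every normal array. The progenitor factor Six2 stood at -0.49, Gdnf, the growth factor ligand of Ret, at -0.52 and Crym at -0.38 (limma adjusted p = 0.454, 0.444 and 0.428), each with overlapping groups. The summed signal of the 7 markers ran from 3257 to 4159 in knockout and from 3795 to 4324 in normal arrays. Of the 10 ureteric bud markers, 9 were above the filter. Of these 9, 5 had a lower and 4 a higher mean, with a median log2 difference of -0.04. Over all 10, the dim one included, the mean was -0.15, -0.16 and -0.03 in knockout, against -0.08, 0.15 and -0.07 in normal arrays. Summed signals of the 10 ran from 2907 to 4534 in knockout and from 3290 to 4067 in normal arrays. All 8 macrophage markers had a higher mean in knockout kidneys. In 3 of them every knockout array lay above every normal array, against 7.76% of all probe sets. The macrophage list mean was 0.53, 0.92 and 0.56 in knockout and 0.47, -0.63 and 0.17 in normal arrays (summed signals from 843 to 1174 and from 380 to 827). The 5 erythroid markers measured stood at 0.99, 0.48 and 1.45 in knockout and -0.50, 0.75 and -0.24 in normal arrays, with summed signals from 1640 to 5041 and from 803 to 2347. The 8 stroma markers stood at -0.11, 0.28 and -0.07 in knockout and 0.27, -0.25 and -0.02 in normal arrays. That mean also holds opposite directions, 3 markers with a lower and 5 with a higher mean. Pdgfrb was lower at -0.33 and Meis1 higher at 0.30, both without overlap (limma adjusted p = 0.311 and 0.331). The 7 chromaffin and neural markers measured stood at 1.115, 0.34 and -1.01 in knockout and 1.52, -1.31 and -0.21 in normal arrays. Of the 5 gonad and adrenal markers, 4 were below the filter. The 5 summed to between 61.6 and 63.7 in knockout and between 53.2 and 70.4 in normal arrays. In these lists 0 markers were at 0 on all arrays. The part of tissue makeup in the differences was not tested.

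**Figure D3:**
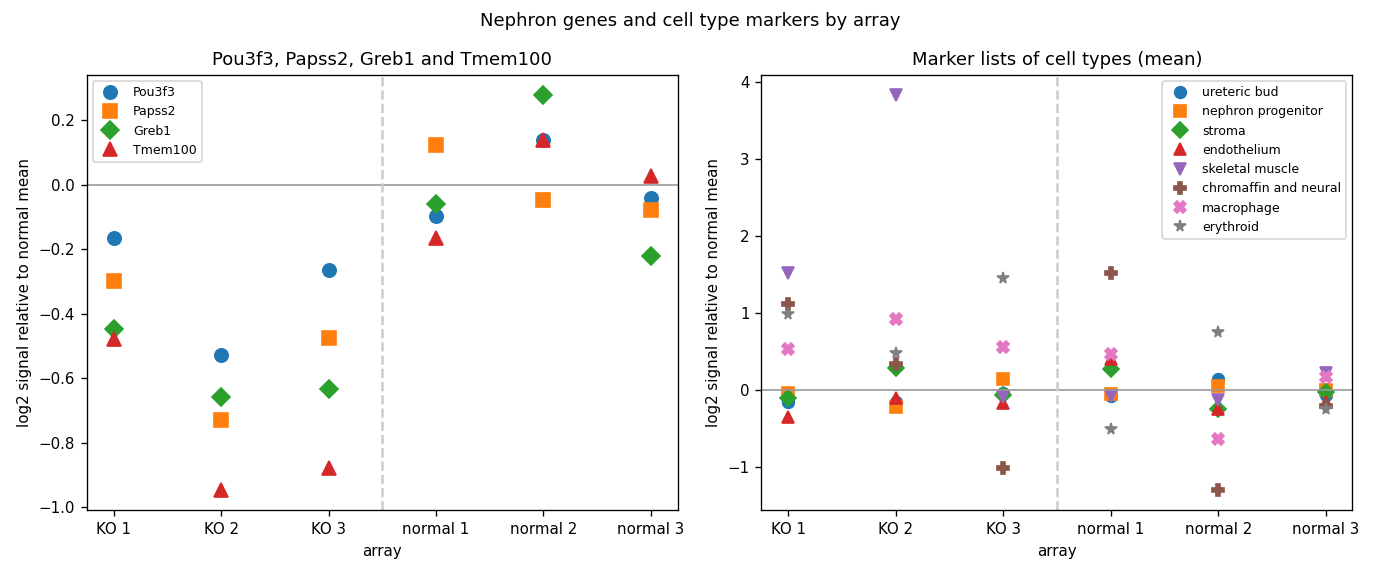
Log2 signal minus the normal mean (vertical axes, which differ in range) for each array (horizontal axis, knockout left, normal right). Left, the brightest probe set of Pou3f3, Papss2, Greb1 and Tmem100, and right, the mean of each cell type marker list except gonad and adrenal. Knockout replicate 2 is the lowest array for the 4 genes and stands at 3.84 for skeletal muscle markers, and knockout replicate 3 stands at -0.09 for these markers.

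Other genes of the nephron were set beside these 8, each by its brightest tested probe set. The list of 16 further renal vesicle genes also holds genes not particular to it, such as Ccnd1 and Sall1. Of the 16, 12 were tested, and 11 of the 12 had a lower and 1 a higher mean in knockout kidneys. Their median log2 difference was -0.30, beside -0.003 over all 12464 genes tested. None passed the threshold (limma adjusted p), where 0.602% of all genes did, and 6 were lower at an unadjusted p under 0.05 with 0 higher, against 5.57% and 6.14% of all genes. The 6, named after their values were seen, were Lhx1, Ccnd1, Osr2, Clec18a, Mycn and Itga8. Pax8, Fgf8, Cdh4 and Cdh6, also named afterwards, had log2 differences of -0.16, -0.30, -0.32 and -0.10, each with overlapping groups. Osr2, a zinc finger factor of the forming nephron, read 44.7, 33.5 and 35.8 in knockout arrays, against 123.5, 61.4 and 56.7 in normal arrays. Its groups did not overlap, although normal replicate 1, the array high in Irx3, was high here as well (log2 difference -1.0, SE 0.31, limma adjusted p = 0.291). Ccnd1, the cell cycle regulator cyclin D1, had a log2 difference of -0.30 (SE 0.09, limma adjusted p = 0.311). The 1 gene with a higher mean was Sall1, a zinc finger factor of nephron progenitors, at 0.13 (SE 0.17), named here after its value was seen. That direction rests on normal replicate 1, at 671.7. Normal replicates 2 and 3 read 1111.5 and 1080.6, above all knockout arrays (from 985.1 to 1048).

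Genes of later segments had mean differences on both sides of 0. Of 15 intermediate and distal tubule genes 8 were below the filter, and of the 7 tested 3 had lower and 4 higher means, with a median log2 difference of 0.05. Those with the smallest p were Ptger3, a prostaglandin E receptor, at 0.69 (SE 0.32, limma adjusted p = 0.450), and the transcription factor Tfap2a at -0.30 (SE 0.21, limma adjusted p = 0.605). Of 12 proximal tubule genes 7 were below the filter, and the median of the 5 tested was 0.04. Among these, Lrp2, the endocytic receptor megalin, was at -0.70 (SE 0.34, limma adjusted p = 0.465) and the glucose transporter Slc5a2 at 0.21 (SE 0.28). Of 12 podocyte genes 6 were tested, 4 with lower and 2 with higher means and a median of -0.13. The forkhead factor Foxc2 was at -0.33 (SE 0.17, limma adjusted p = 0.496) and the cell cycle inhibitor Cdkn1c at 0.16 (SE 0.08, limma adjusted p = 0.498). In these 3 lists 0 genes had an unadjusted p under 0.05.

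Related genes and the sulfation pathway gave no calls. Of 10 paralogs of the 8 genes 6 were tested, 5 with lower and 1 with higher means and a median log2 difference of -0.11. Wfdc1, which like Wfdc2 carries a whey acidic protein domain, read 10.1, 16.6 and 11.7 in knockout arrays, against 23.5, 22.5 and 21.4 in normal arrays. It was lower without overlap, near the filter level (log2 difference -0.84, SE 0.35, limma adjusted p = 0.419), and Greb1l, the paralog of Greb1, was at 0.21 (SE 0.18, limma adjusted p = 0.673). Papss1, the other PAPS synthase, named after its value was seen, had a log2 difference of -0.03 (SE 0.08, limma adjusted p = 0.922). All 12 sulfate activation and transfer genes on the array with a symbol were tested, 10 with lower and 2 with higher means, and their median was -0.05. The heparan sulfate 6-O-sulfotransferase Hs6st1 was at -0.47 (SE 0.29, limma adjusted p = 0.567), with normal replicate 1 at 275.7 and the other 5 arrays between 108.9 and 126.2. Slc35b2, which carries PAPS into the Golgi, was at -0.18 (SE 0.14, limma adjusted p = 0.629).

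**Figure D4:**
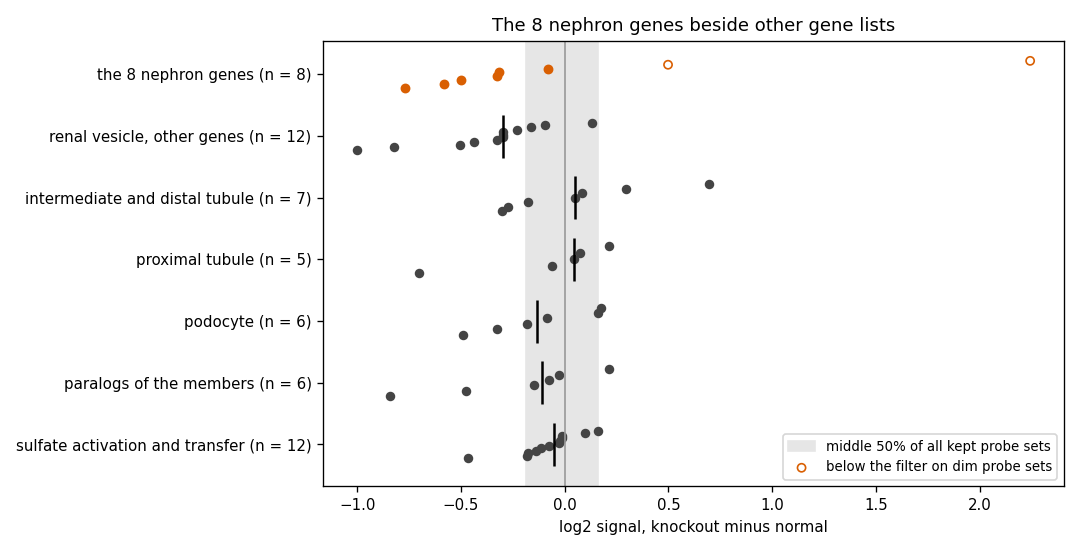
Log2 signal, knockout minus normal (horizontal axis), of the brightest probe set of each of the 8 nephron genes (orange, open where dim and not tested) and of tested genes in 6 other lists (grey points, black bars at the list median). The grey band holds the middle 50% of all tested probe sets, from -0.19 to 0.16, and the further renal vesicle genes have a median of -0.30.

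The targeted gene gave no check of the labels. Ctnnb1 read 6777, 6779 and 6586 in knockout replicates 1 to 3, against 5707, 6760 and 6549 in normal replicates 1 to 3 by its brightest probe set, a log2 difference of 0.09 (SE 0.08, limma adjusted p = 0.695). Cells outside the ureteric bud keep the gene, and the position of its probes against the deleted exons was not analysed. The description field of the knockout samples calls them normal, against their titles and source names, and every direction given here follows the titles.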

How the data were processed

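Gene expression was measured on 6 single-colour Affymetrix arrays, each from 1 µg of total RNA amplified in a single cycle, per the labels. The deposited signal intensities, linear and with 1 value for each probe set, come from MAS5 as run by the authors, per the submitters' processing notes. The MAS5 version is not given in the sources. The trimmed means of the arrays ran from 149.9 to 150 and their medians spanned 0.37 (log2), so no further scaling was used. MAS5 subtracts mismatch signal, so dim values scatter widely on a log scale.

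The 15 values of 0 were set to 1.7 before log2. A probe set was tested if its mean log2 signal on the 6 arrays was above the 40th percentile (a signal of 14.7), 27022 of 45037 with 64 controls left out. Of the 45037, 34945 had 1 symbol in the platform annotation, 932 had several and 9160 had none here. Knockout was tested against normal in limma 3.58.1 under R 4.3.3 (intensity trend, Benjamini-Hochberg over all tested probe sets, threshold 0.05), which was tested on simulated data. The number of arrays limits the precision. Named genes are the 8 with all their probe sets, and for each list of other nephron or related genes up to 4 genes past the threshold (the 2 of smallest p if there were none), besides Ctnnb1 and the genes of nearest profile. Cell type markers named singly were chosen after their values were seen. Genes, lists and tests were chosen with earlier results of these data known. Same-numbered arrays correlated in their deviations at 0.08, -0.11 and -0.20, so the replicate numbers were not taken as pairs. Alternatives covered scaling, filter, pseudocount, variance model, array weights, a replicate block, the mean of a gene's probe sets and leaving out arrays.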

Additional observations from a re-analysis of the deposited data

How the results depend on the processing

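Of 150 log2 differences recomputed for the 9 tested probe sets under up to 17 alternatives each, 145 kept their direction and 1 crossed the threshold, that of Papss2 1421989_s_at with arrays centred on their medians. This made 1 call among the 9, where all other alternatives gave 0. The direction turned for Irx3 (log2 difference of 0.077) without normal replicate 1, for Papss2 1421987_at (-0.11) without normal replicate 2, for Wfdc2 (0.057 and 0.062) without normal replicate 2 and without knockout replicate 2, and for Wfdc2 (0.071) with knockout replicate 3 alone against the normal arrays, a fit added after seeing the data. With single arrays left out, the log2 difference ran from -0.55 to 0.077 for Irx3, from -0.11 to 0.41 for Papss2 1421987_at and from -0.20 to 0.062 for Wfdc2. The cause was not tested. The median over the 16 probe sets ran from -0.62 to -0.44 with single arrays left out and was -0.30 on the log2(signal + 16) scale, which by its construction shrinks dim probe sets. The count of the 9 lower at an unadjusted p under 0.05 was 3 without knockout replicate 2, 3 with knockout replicate 3 alone and between 4 and 6 otherwise, without knockout replicate 1 and normal replicate 1 together (6) included.

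Over all tested probe sets 157 passed, 434 with arrays centred on their medians, 41 without the intensity trend, 29 without knockout replicate 1 and normal replicate 1 together, 33 with knockout replicate 3 alone and from 47 to 149 with single arrays left out. With the replicate number as a block, which is not a pairing here, 109 passed and 0 of the 9. In 0 of 3 knockout arrays did the deviations correlate best with the normal array of the same number.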

Other observations

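The genes whose centred log2 profile over the 6 arrays lay nearest, among 12464 genes, were found for the 6 of the 8 genes with a tested probe set and are given as a description of likeness only. For Tmem100 these were Lama1, the laminin alpha 1 chain of the early epithelial basement membrane, with a root mean square difference of 0.11, and the lipid phosphatase gene Mtm1 (0.11). Lama1 read 152.3, 111.7 and 108.9 in knockout replicates 1 to 3, against 167.6, 217.4 and 176.2 in normal replicates 1 to 3. Its groups did not overlap, and as for Tmem100, knockout replicate 1 was the highest knockout array. For Greb1 they were the acyltransferase gene Agpat1 (0.04) and Fam110a (0.05), for Papss2 the synaptic scaffold gene Dlg4 (0.04) and the mitochondrial myosin gene Myo19 (0.05), and for Pou3f3 Pprc1 (0.03) and Mettl17 (0.03). For Wfdc2 they were Fancc (0.06) and the fatty acid elongase gene Elovl6 (0.06). For Irx3 they were Shf (0.06) and the transcription factor gene Cebpb (0.09), and both of these were highest in normal replicate 1, at 102.4 and 121.5, against 45.1 to 66 on the other arrays.

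A further probe set, 1429857_at, is annotated to both Pou3f3 and the neighbouring transcript 2900092D14Rik and was left out of the comparisons. It read 30.3, 31.1 and 34.1 in knockout arrays, against 33.8, 23.8 and 40 in normal arrays, and its groups overlapped.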
